A study of Mus musculus with 6 samples.

Results

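Genes of the germ granule and of the piRNA pathway were followed in cultured mouse ovaries, with and without ISRIB, and all 10 chosen were found by symbol among the 26329 genes of the deposited FPKM table (fragments per kilobase of gene, scaled to library size). They were Ddx4, Dazl, Piwil2, Mov10l1, Asz1, Tdrd1, Tdrd5, Tdrd6, Tdrd7 and Tdrd9. The study sequenced total RNA of 6 libraries. Ovaries of the Control group had been cultured with the solvent DMSO (3 libraries), and those of the ISRIB group with ISRIB dissolved in DMSO (3 libraries). ISRIB is a small molecule that activates the guanine nucleotide exchange factor eIF2B and so counteracts the integrated stress response, a brake on protein synthesis. The title places the work in the question of whether blocking that response activates resting follicles through mTOR. No genotype is named. The strain and age of the cultured ovaries, the dose and the culture time were not given in the sources used here, nor whether a library came from 1 ovary, several or separate animals, so each p-value reflects only how these libraries vary, which may be technical.

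Germ granules, also called nuage, are RNA-rich bodies without a membrane in the cytoplasm of germ cells. In them, PIWI proteins loaded with piRNAs, small RNAs made from long precursors, recognise and cleave transposon transcripts, and Tudor domain proteins hold the machinery together by binding methylated arginines of PIWI proteins. The pathway is best known from the testis, where loss of Piwil2, Mov10l1, Asz1, Tdrd1 or Tdrd9 makes male mice sterile while females stay fertile. Dazl, in contrast, is needed in both sexes. Mouse oocytes carry several of these proteins in the resting follicles of the young ovary and also use a second small RNA system, built on Dicer. Messenger RNA was measured here, and neither piRNAs nor transposon transcripts were analysed.

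Of the 10 genes, 9 had a mean of at least 1 FPKM over the 6 libraries and were tested. In ISRIB, 4 of them lay below Control with no overlap between the groups. These were Mov10l1, Tdrd9, Piwil2 and Tdrd1, at 73.3%, 75.4%, 78.5% and 86.2% of their Control means. Ddx4, the usual marker of germ cells, was at 101% of its Control mean. None of the 9 passed the test, limma on log2(FPKM + 0.5) with p adjusted over all 12922 genes tested (adjusted p under 0.05), and the share called among all genes was 0%. With limma's voom, which weights reads worked back from the FPKM, 0 of the 9 passed as well, beside 0.619% of all genes called lower. At an unadjusted p under 0.05, 4 of the 9 were lower and 0 higher, beside 7.73% of all genes that were lower. All ISRIB libraries below all Control libraries was the case for 4 of the 9 and for 12.0% of all genes.

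**Figure D1:**
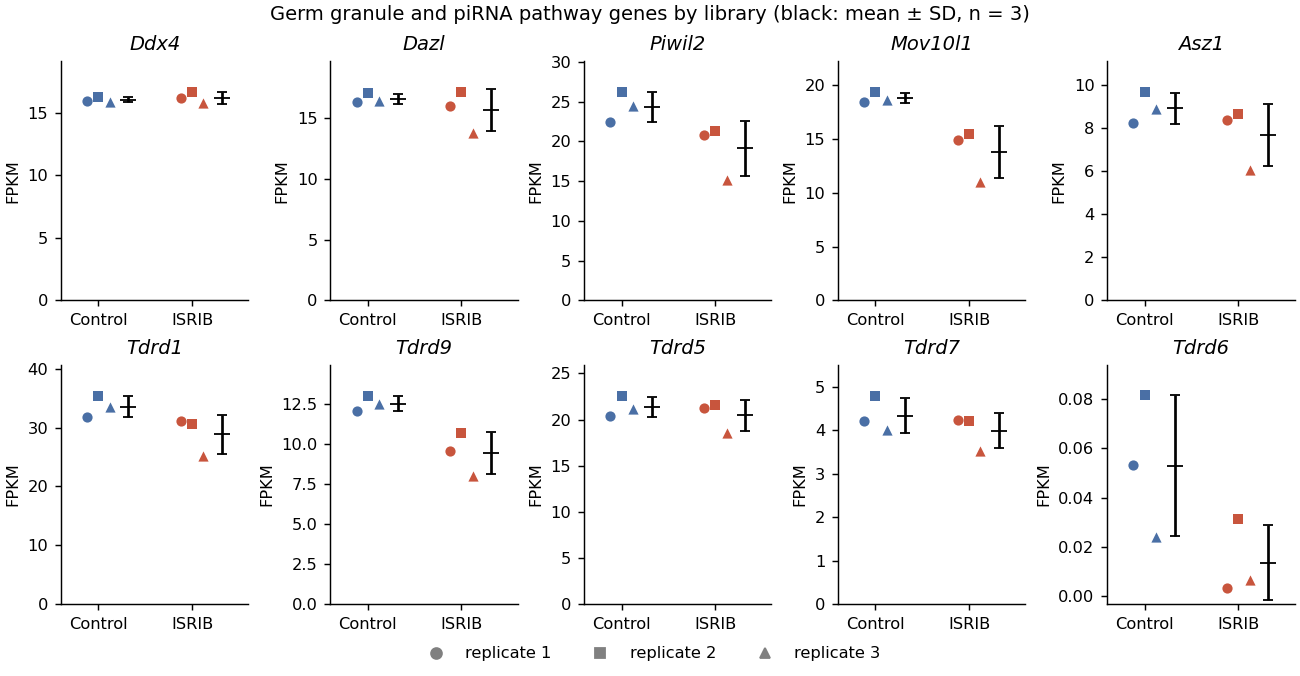
FPKM of each of the 10 genes (vertical axis, own scale for each gene) in the 3 Control (blue) and 3 ISRIB (red) libraries. Symbols mark the replicate, and black bars give mean ± SD (n = 3). The groups are apart for Piwil2, Mov10l1, Tdrd1 and Tdrd9, and Ddx4 is level.

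FPKM is scaled by gene length, and the order of the 10 levels rests on the lengths used, which can be worked back from the values. In the deposited FPKM of the Control libraries, Tdrd1 had the highest mean, followed by Piwil2, Tdrd5, Mov10l1, Dazl, Ddx4, Tdrd9, Asz1 and Tdrd7, with Tdrd6 last. Only 1 pair of neighbours in that order, Piwil2 and Tdrd5, overlapped in range between the 3 Control libraries. In ISRIB the order was Tdrd1, Tdrd5, Piwil2, Ddx4, Dazl, Mov10l1, Tdrd9, Asz1, Tdrd7 and Tdrd6. There, each neighbour from Tdrd5 down to Mov10l1 overlapped with the next, as did Tdrd9 with Asz1. The implied length was 5057 bases for Ddx4, against 3014 bases of GENCODE exons, 9243 against 3958 for Tdrd7, 1883 against 2829 for Asz1 and 4206 against 4183 for Mov10l1. With GENCODE lengths, an alternative chosen after seeing the data, Tdrd1 was again highest and Tdrd6 lowest in both groups. Ddx4 then had a mean of 26.9 FPKM in Control and 27.2 FPKM in ISRIB and lay above Mov10l1 in every library, and Tdrd7 lay above Asz1. The places between the first and the last are therefore not fixed by these data, while comparisons of 1 gene between the groups do not depend on which length divides its reads. Removing a trend with gene length in each library can still move them. The log2 fold change went from −0.062 to −0.003 for Tdrd5 and from −0.449 to −0.433 for Mov10l1.

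Among the enzymes of piRNA production, Mov10l1 differed most. It encodes an RNA helicase that feeds long precursor transcripts into piRNA processing (chromosome 15, 88982909 to 89055152, plus strand, GRCm38). Its level was 18.4, 19.3 and 18.6 FPKM in Control replicates 1 to 3 and 14.9, 15.5 and 11.0 FPKM in ISRIB replicates 1 to 3. Each ISRIB library was below the lowest Control library, and ISRIB replicate 3 was the lowest. The group means were 18.8 ± 0.454 and 13.8 ± 2.43 FPKM (SD, n = 3 each). ISRIB over Control this was −0.45 on the log2 scale (SE 0.116, 95% interval −0.72 to −0.18, limma adjusted p = 0.134). Leaving out ISRIB replicate 3 made it −0.30 (adjusted p = 0.199), and over all alternatives it ranged from −0.58 to −0.30.

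Tdrd9 encodes a protein with both a helicase and a Tudor domain that works with nuclear PIWI proteins in transposon silencing (chromosome 12, 111971559 to 112068854, plus strand). Control libraries had 12.0, 13.0 and 12.5 FPKM and ISRIB libraries 9.56, 10.7 and 8.02 FPKM. The groups stood apart, and the spread was wider in ISRIB. The means were 12.5 ± 0.473 and 9.42 ± 1.33 FPKM (SD, n = 3 each). The log2 ratio of ISRIB to Control was −0.40 (SE 0.0963, limma adjusted p = 0.121, and −0.29 with adjusted p = 0.233 without ISRIB replicate 3).

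The PIWI protein itself, which cuts transposon RNA and binds piRNAs, is encoded by Piwil2 (chromosome 14, 70372477 to 70429383, minus strand). It measured 22.4, 26.2 and 24.4 FPKM in Control and 20.8, 21.3 and 15.2 FPKM in ISRIB. ISRIB replicates 1 and 2 were just under the lowest Control library, and ISRIB replicate 3 was well below it. The Control mean was 24.3 ± 1.87 FPKM (SD, n = 3), and the ISRIB mean was 78.5% of it with an SD of 3.41 FPKM. On the log2 scale the difference was −0.35 (SE 0.125, limma adjusted p = 0.228). Without ISRIB replicate 3 the value was −0.20 (adjusted p = 0.327).

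Tdrd1, a Tudor scaffold that binds the PIWI protein in the granule (chromosome 19, 56826209 to 56870012, plus strand), had 31.8, 35.4 and 33.4 FPKM in Control and 31.1, 30.5 and 25.1 FPKM in ISRIB. The gap between the groups was narrow, from 31.8 FPKM in the lowest Control library to 31.1 FPKM in the highest ISRIB library. The means were 33.5 ± 1.80 and 28.9 ± 3.31 FPKM (SD, n = 3 each), −0.22 apart on the log2 scale (SE 0.0849, limma adjusted p = 0.269). That became −0.12 without ISRIB replicate 3 (adjusted p = 0.446), and after removal of a trend with gene length the 2 groups of Tdrd1 overlapped (−0.18, adjusted p = 0.389).

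**Figure D2:**
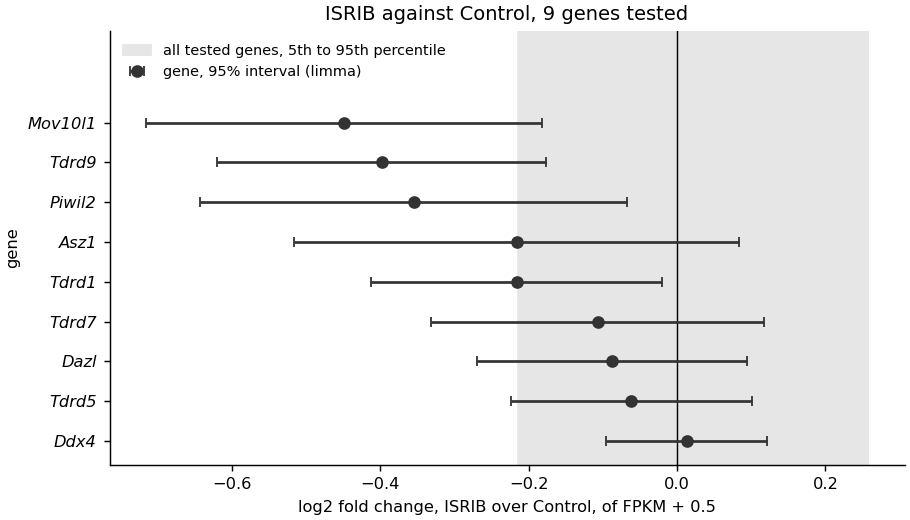
Log2 fold change of FPKM + 0.5, ISRIB over Control (horizontal axis), of the 9 genes tested, with 95% intervals from limma. The grey band holds the 5th to 95th percentile of all genes tested, −0.21 to 0.26. Mov10l1, Tdrd9 and Piwil2 lie to the left of the band, Tdrd1 and Asz1 at its left edge (−0.216 each, against −0.214), and the interval of Ddx4 lies inside it.

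The other 5 tested genes overlapped between the groups. Ddx4 (chromosome 13, 112598333 to 112652475, minus strand), an RNA helicase found in the germ granules of many animals, had 16.0, 16.2 and 15.9 FPKM in Control and 16.2, 16.6 and 15.8 FPKM in ISRIB. Its log2 fold change was 0.01 (95% interval −0.095 to 0.121, adjusted p = 0.909), and the sign turned in 3 alternatives, among them −0.04 after rescaling to TPM. Dazl (chromosome 17, 50279395 to 50293636, minus strand) encodes an RNA-binding protein that promotes translation of germ cell messages. Its 3 Control libraries lay between 16.3 and 17.0 FPKM. The ISRIB libraries had 16.0, 17.1 and 13.7 FPKM, with a log2 fold change of −0.09 (adjusted p = 0.616) that was −0.00 without ISRIB replicate 3. Asz1 (chromosome 6, 18050964 to 18109061, minus strand), a scaffold that tethers the granule to mitochondria, had 8.23, 9.67 and 8.92 FPKM in Control and 8.39, 8.67 and 6.04 FPKM in ISRIB. The ISRIB replicates 1 and 2 of Asz1 lay within the Control range. Its log2 fold change of −0.22 (adjusted p = 0.445) was −0.06 without ISRIB replicate 3.

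Tdrd5 and Tdrd7 carry LOTUS domains beside their Tudor domains and take part in assembling the granule. Tdrd5 (chromosome 1, 156255296 to 156303664, minus strand) ranged from 20.4 to 22.5 FPKM in Control and from 18.5 to 21.6 FPKM in ISRIB, a log2 difference of −0.06 (limma adjusted p = 0.703, and 0.01 without ISRIB replicate 3). Of its exon bases, 2.54% also lie in an annotated antisense transcript. Tdrd7 (chromosome 4, 45965334 to 46034761, plus strand), which is also made outside the germ line, ranged from 4.01 to 4.79 FPKM in Control and from 3.53 to 4.23 FPKM in ISRIB (−0.11, adjusted p = 0.619). It was −0.04 after the length correction, −0.04 without Control replicate 2 and −0.03 without ISRIB replicate 3.

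Tdrd6, which organises the chromatoid body of spermatids (chromosome 17, 43615335 to 43630299, minus strand), was close to the detection limit. Reads worked back from the FPKM numbered 16, 27 and 8 in Control and 1, 10 and 2 in ISRIB, against 406 to 7796 reads per library for the 9 tested genes. Its FPKM were 0.0533, 0.0817 and 0.0242 in Control and 0.00319, 0.0312 and 0.00643 in ISRIB. Control replicate 3 lay below ISRIB replicate 2, so the groups overlapped. With no filter on low values the limma adjusted p was 0.522.

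Promoter sequence is shown for the genes that stood apart between the groups and for Ddx4, which did not. The RefSeq table of 300-base windows (GRCm38.p6, 250 bases before to 50 after the start of transcription) matched 8 of the 10 genes, with 12 windows. Windows follow 5′ to 3′ on the gene's strand, with CACGTG in capitals. This E-box is read by MYC, MAX and related factors, and MAX with its partner MGA belongs to a repressor complex of germ line genes in other cells. Piwil2 and Tdrd6 had no entry.
Mov10l1 (chr15:88982744-88983043, plus strand): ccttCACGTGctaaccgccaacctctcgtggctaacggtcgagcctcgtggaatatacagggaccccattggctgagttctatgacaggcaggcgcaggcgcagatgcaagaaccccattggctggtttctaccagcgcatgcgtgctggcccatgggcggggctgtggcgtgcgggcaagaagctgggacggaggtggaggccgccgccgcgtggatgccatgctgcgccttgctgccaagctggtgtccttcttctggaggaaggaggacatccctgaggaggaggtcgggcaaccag
Tdrd9 (chr12:111971309-111971608, plus strand): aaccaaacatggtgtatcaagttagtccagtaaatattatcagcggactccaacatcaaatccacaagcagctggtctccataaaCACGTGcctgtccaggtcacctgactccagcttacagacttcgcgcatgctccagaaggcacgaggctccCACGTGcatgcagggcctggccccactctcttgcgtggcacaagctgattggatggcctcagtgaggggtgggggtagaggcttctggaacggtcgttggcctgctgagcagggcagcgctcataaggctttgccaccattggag
Tdrd1 (chr19:56825959-56826258, plus strand, the first of 3 windows): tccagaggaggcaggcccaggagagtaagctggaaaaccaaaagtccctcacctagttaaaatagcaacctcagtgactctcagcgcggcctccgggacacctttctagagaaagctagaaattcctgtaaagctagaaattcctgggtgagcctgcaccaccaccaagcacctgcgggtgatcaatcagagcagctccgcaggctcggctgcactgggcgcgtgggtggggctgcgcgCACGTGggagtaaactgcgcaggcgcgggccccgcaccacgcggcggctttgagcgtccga
Ddx4 (chr13:112652261-112652560, minus strand): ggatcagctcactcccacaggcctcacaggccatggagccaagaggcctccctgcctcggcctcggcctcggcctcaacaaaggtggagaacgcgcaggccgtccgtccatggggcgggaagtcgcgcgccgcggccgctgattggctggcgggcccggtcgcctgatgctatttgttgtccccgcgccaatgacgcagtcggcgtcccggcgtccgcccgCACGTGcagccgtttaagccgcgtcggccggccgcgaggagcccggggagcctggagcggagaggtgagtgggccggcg

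CACGTG, which reads the same on both strands, was found in windows of 4 of the 8 genes matched, the 4 shown. The motif started 246 bases before the RefSeq start of transcription in Mov10l1, 165 and 95 bases before it in Tdrd9 and 29 bases before it in Ddx4. In Tdrd1 it was 11 bases before the start of the window shown and 77 bases before that of another window. The Ddx4 start used is not among the GENCODE transcript starts of the gene. Among tested genes with a window, 11.8% had it in at least 1 window. The windows of Dazl, Asz1, Tdrd5 and Tdrd7 did not hold these letters. The E2F core TCCCGC, searched on both strands, was in 2 of the 8 genes, Ddx4 and Tdrd5, against 40.4% of tested genes. The MYB core AACNGT was in 4 (23.4% of tested genes), and the homeobox core TAATTG in 0 (5.65% of tested genes). The shares are per gene, and 2 of the 8 genes have 3 windows each. Of the 12 windows, 10 held at least 10 CpG dinucleotides, as did 78.9% of the windows of tested genes. A matching run of letters describes the window and shows no binding, and Ddx4, with the E-box 29 bases before its RefSeq start, was level between the groups.

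Setting each gene against Ddx4 in its own library cancels whatever scales all germ cell RNA alike. In bulk tissue, fewer cells of a type and less RNA per cell cannot be told apart. The within-library log2 difference of Mov10l1 from Ddx4 was 0.20, 0.24 and 0.23 in Control and −0.12, −0.10 and −0.50 in ISRIB. The sign of such a difference depends on the gene lengths used, and the change between the groups does not. For Mov10l1 every ISRIB value was below every Control value. For Tdrd9 the differences were −0.39, −0.31 and −0.34 in Control and −0.73, −0.62 and −0.93 in ISRIB. Piwil2 had 0.48, 0.67 and 0.61 against 0.35, 0.35 and −0.05. Ddx4 itself lay between 15.8 and 16.6 FPKM in all libraries, so this scale largely repeats the FPKM comparison and is not separate support. Tdrd1, Tdrd9, Piwil2 and Mov10l1, the same genes as in FPKM, did not overlap between the groups on it. They were 4 of the 8 genes compared, beside 13.9% of all genes whose difference from Ddx4 was lower in all ISRIB libraries. For these 4 the exact two-sided permutation p was 0.1, the smallest that 3 against 3 libraries allow, and 0.2 after Benjamini-Hochberg adjustment over the 8. Dazl, Tdrd5, Tdrd7 and Asz1 overlapped, with adjusted values of 0.267 to 0.4 in the same exact test. With all 6 libraries and the trend with gene length removed, the count was 6 of 8. Without Control replicate 1 it was 7 of 8. With a library fewer, groups stand apart more easily, and the share of all genes was not computed for either setting.

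**Figure D3:**
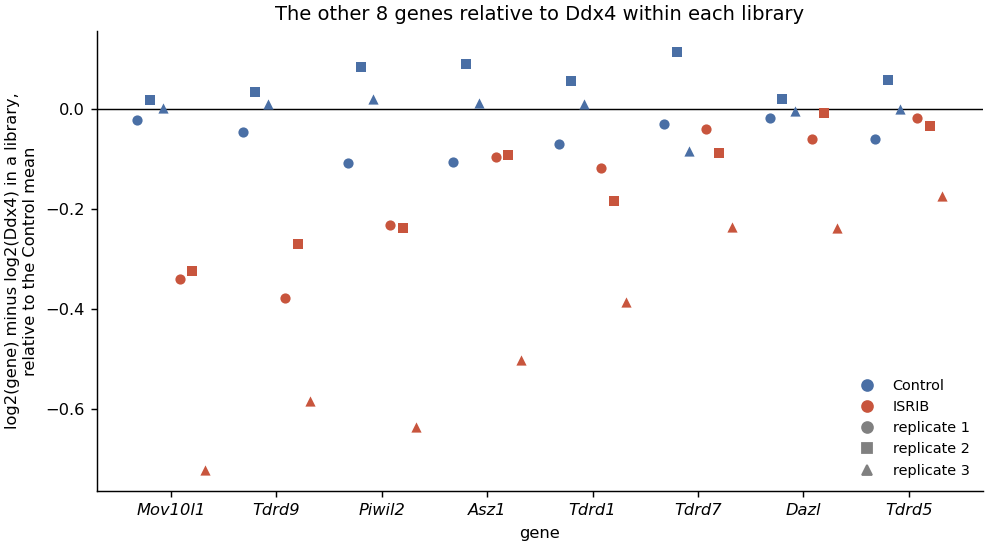
Within-library log2 difference of 8 genes from Ddx4, drawn relative to the Control mean (vertical axis, log2 units), for 3 Control (blue) and 3 ISRIB (red) libraries; symbols mark the replicate. Mov10l1, Tdrd9, Piwil2 and Tdrd1 have no overlap between groups, and ISRIB replicate 3 is lowest for each of the 8.

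ISRIB replicate 3 had the lowest level of all 6 libraries for each of the 9 tested genes. Over all tested genes it was the lowest library for 23.1%. The median log2 fold change of the 9 genes was −0.22, beside 0.01 for all genes, and −0.06 without that library. Markers of oocytes of all follicle stages had their lowest level in ISRIB replicate 3 for 6 of 10 genes and markers of growing oocytes for 2 of 12. No tested marker of stroma, endothelium or immune cells was lowest there, but 2 of 6 surface epithelium, 1 of 3 theca and 1 of 10 granulosa markers were. So were 12 of the 17 tested genes on a list of other piRNA and germ granule genes. The part that this library's oocyte content plays in the values above was not tested.

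Oocyte markers were measured beside the 9 genes. The 10 markers of oocytes of all stages, among them Nobox, Figla, Sohlh1 and Kit, summed to 404 to 446 FPKM in Control and 377 to 443 FPKM in ISRIB, with a median log2 fold change of −0.11. The 12 markers of growing oocytes, among them Gdf9 and the zona genes Zp1, Zp2 and Zp3, summed to 2620 to 2960 and 2820 to 3220 FPKM, with a median of 0.15 and 11 of 12 higher. No marker of either list was at 0 in all libraries, and 0 of the 22 passed the limma test. An unadjusted p under 0.05 was found for 7 of them and for 2125 of all 12922 genes (1126 higher and 999 lower). Among markers of all stages, these were 2 higher (Oosp1, 0.42, and Npm2, 0.22) and 1 lower (Kit, −0.26). Among growing oocyte markers they were 4 higher and 0 lower. At any p, 3 markers of all stages were higher and 7 lower. Relative to the mean log2 level of the markers of all stages, the log2 difference was −0.40 for Mov10l1 (limma adjusted p = 0.228), −0.35 for Tdrd9 and −0.31 for Piwil2, and 0 of the 9 passed.

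Relative to growing oocyte markers, all 9 were lower and 3 of them passed the limma test, beside 0.936% of all genes called lower on that scale. The 3 were Mov10l1 (−0.58, limma adjusted p = 0.00331), Tdrd9 (−0.53, adjusted p = 0.00979) and Piwil2 (−0.49, adjusted p = 0.0199). That scaling set the median of all genes to −0.13, so relative to it the 3 genes were lower by a smaller amount. Tdrd1 and Asz1 had −0.35 each, the latter with an adjusted p of 0.161, and Ddx4 had −0.12 (adjusted p = 0.581), close to that median. This reference was itself higher in ISRIB for 11 of its 12 genes, and its part in these 3 calls was not tested. Every gene also shared the error of this 1 reference per library, whereas limma treats genes as separate. The SE of Mov10l1 was 0.122, beside 0.116 in the main fit, while its unadjusted limma p went from 0.0047 to 7.68e-06. These adjusted p therefore do not measure the spread of 3 against 3 libraries. In the exact permutation test on this scale, each of the 3 genes had p = 0.1, and 0.15 after Benjamini-Hochberg adjustment.

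**Figure D4:**
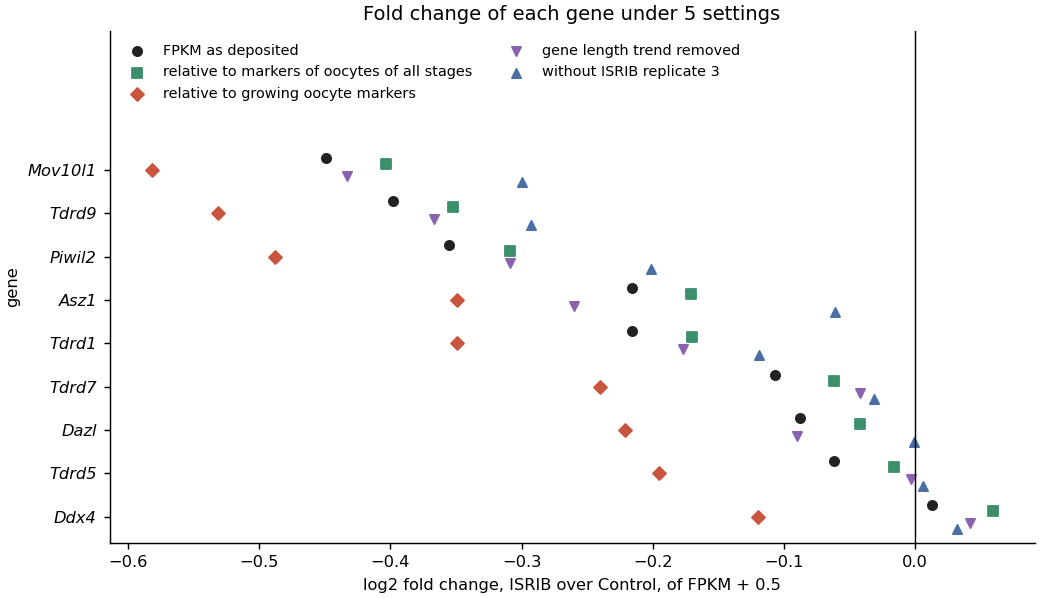
Log2 fold change, ISRIB over Control, of the 9 genes (vertical axis) under 5 settings: FPKM as deposited, relative to each of the oocyte marker lists, with the gene length trend removed, and without ISRIB replicate 3. Mov10l1, Tdrd9 and Piwil2 stay left of 0 in all 5, from −0.58 to −0.20, whereas Ddx4 lies on both sides of it.

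Profiles over the 6 libraries were compared as a description, since the libraries share their treatment groups and scaling. On the log2 scale, Pearson's r lay from 0.746 to 0.995 for the 28 pairs among the genes other than Ddx4, and 0.235 to 0.706 for the 8 pairs with Ddx4. The profile of Ddx4 was most like those of Aldh9a1 (r = 0.998), Zfp770 (r = 0.988) and Zc3h12b (r = 0.983). The mean profile of the 9 genes was most like those of Prmt6 (r = 0.995), Nfya (r = 0.993) and Lcor (r = 0.992). With 12922 genes compared over 6 libraries, values this high are the top of a long list.

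Other genes of the pathway were taken from a list. Of 26 listed genes with roles in piRNA production or the germ granule, 17 were tested, 0 passed, 13 were lower and 4 higher in ISRIB, and the median log2 fold change was −0.05. At an unadjusted p under 0.05, where 7.73% of all genes were lower, there was 1 gene, which was lower. It was Tex15, a factor of piRNA-guided transposon methylation in fetal male germ cells, with 19.14, 18.94 and 19.98 FPKM in Control and 16.02, 18.71 and 14.22 FPKM in ISRIB, −0.25 apart on the log2 scale (limma adjusted p = 0.241). Its groups did not overlap, by a margin of 18.94 to 18.71 FPKM, and 12.0% of all genes lay below Control in the same way. The methyltransferase Prmt5, which marks the arginines that Tudor domains bind, measured 37.9 ± 2.10 and 35.8 ± 1.07 FPKM (−0.08, adjusted p = 0.499). Its cofactor Wdr77 had 19.7 ± 0.719 and 21.2 ± 0.0964 FPKM (SD, n = 3 each; 0.10, adjusted p = 0.323), all ISRIB libraries above Control. Pld6, a mitochondrial protein of piRNA processing, had −0.14 (adjusted p = 0.656), and 0.03 without ISRIB replicate 3.

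Several partners were abundant and overlapped between the groups, named here after their values were seen. Mael, a granule protein, had 54.0 ± 1.98 and 53.6 ± 5.30 FPKM (−0.01 on the log2 scale, 95% interval −0.183 to 0.153, limma adjusted p = 0.938). Gtsf1, a cofactor of PIWI proteins, had 53.1 ± 3.44 and 50.2 ± 8.15 FPKM (SD, n = 3 each). Its log2 fold change was −0.09 with a wider 95% interval, −0.343 to 0.164 (limma adjusted p = 0.727). The other 2 mouse PIWI genes were under the filter, Piwil1 between 0.202 and 0.603 FPKM and Piwil4 between 0.276 and 0.678 FPKM. Piwil2 was therefore the PIWI gene with the highest level in these ovaries. Genes related to the 9 but expressed in many tissues gave no call either. Mov10, the widely expressed relative of Mov10l1, had 25.5 ± 0.866 and 24.4 ± 1.73 FPKM (−0.06, adjusted p = 0.647). Ddx3x, a relative of Ddx4, had −0.05 (adjusted p = 0.771), Tdrd3 0.09 (adjusted p = 0.591), Dazap1 0.06 (adjusted p = 0.531) and the helicase Dhx9 −0.10 (adjusted p = 0.247). Of these 5, Dhx9 lay below Control in all ISRIB libraries, as did 12.0% of all genes, and Tdrd3 lay above it. The share of all genes above Control in all ISRIB libraries was not computed, so none stands beside Tdrd3, Wdr77 or Zar1l.

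Proteins that store and translate messages in the oocyte, the cytoplasmic neighbours of Ddx4 and Dazl, went both ways. Of 17 tested, 8 were higher and 9 lower, 0 passed, and the median was −0.02. At an unadjusted p under 0.05, 3 were higher and 1 lower, beside 1126 higher and 999 lower of all 12922 genes. Zar1l, a relative of the maternal RNA-binding protein Zar1, measured 1.74, 1.79 and 1.70 FPKM in Control and 3.01, 2.58 and 3.15 FPKM in ISRIB, 0.60 apart on the log2 scale (limma adjusted p = 0.0832). All its ISRIB libraries were above Control, at a low level. The oocyte cap-binding protein Eif4e1b had 0.24 (adjusted p = 0.303), the deadenylase Cnot7 0.15 (adjusted p = 0.178) and Marf1, an oocyte endoribonuclease, −0.16 (adjusted p = 0.211).

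**Figure D5:**
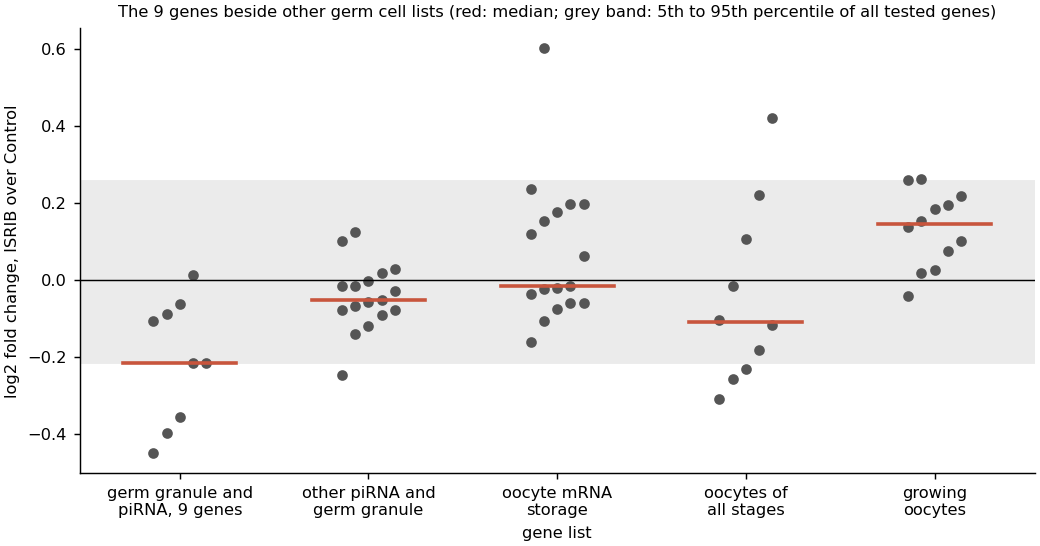
Log2 fold change, ISRIB over Control (vertical axis), of single genes (points) in 5 lists, with the list median in red and the 5th to 95th percentile of all tested genes in grey. Medians are −0.22 for the 9 genes, −0.05 for other piRNA and germ granule genes, −0.02 for oocyte mRNA storage proteins, −0.11 for oocytes of all stages and 0.15 for growing oocytes.

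The libraries held 34474821 to 38002135 reads worked back from the FPKM. Markers of ovary were present, with Zp3 at 361 to 466 FPKM and the granulosa factor Foxl2 at 137 to 163 FPKM. Genes of male germ cells and Sertoli cells (Prm1, Prm2 and Dmrt1) were at 0.55 FPKM or less, Sox9 was at 3.37 to 4.75 FPKM, and the T cell gene Cd3e was at 0.124 FPKM or less. No marker of other ovarian cells passed the limma test. An unadjusted p under 0.05 was found for 3 of 10 granulosa markers (2 higher and 1 lower) and 4 of 5 endothelial markers (4 lower), beside 2125 of all 12922 genes. Granulosa markers summed to 652 to 776 FPKM in Control and 742 to 899 FPKM in ISRIB, and the 5 endothelial markers to 109 to 115 and 87.3 to 97.2 FPKM. All ISRIB libraries lay below Control for 4 of the 5 endothelial markers and for 12.0% of all genes. The part of these cell types in the values of the 9 genes was not tested.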

How the data were processed

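The authors deposited FPKM values per gene, 1 column per library, with no pooling of replicates. Per the submitters' processing notes, the build was mm10 and the tools included HISAT2, HTSeq, fastp, DESeq2 and R 3.2.0, without roles; annotation and strand setting were not given in the sources used. Groups were taken from titles. Reads were worked back from the FPKM, since each value is a whole number of reads times a library and a gene factor (100% of genes whole, tolerance 0.01 read). Log2(FPKM + 0.5) of the 12922 genes with a mean of at least 1 FPKM was fitted with limma 3.58.1 in R 4.3.3 (2 groups, intensity trend, two-sided, Benjamini-Hochberg); fold changes of low genes are understated. The fit and the recovery were tested on simulated data. Exact permutation tests used scipy 1.17.1. Gene positions were read from GENCODE M21 (build GRCm38, equal to mm10), and promoters from RefSeq.

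The 10 genes, the gene lists and the alternatives were chosen with earlier results of these data known. Named genes are the 10, the 4 of each pathway list with the smallest p, paralogs of the 10, and the 3 genes most alike in profile to Ddx4 and to the mean of the 9 tested; others were named after their values were seen. Marker lists covered growing oocytes, oocytes of all stages, stroma, granulosa, theca, immune cells, endothelium, surface epithelium, and male germ and Sertoli cells. Alternatives were pseudocounts of 0.1 and 1, other filters, TPM, median-of-ratios and quantile scaling, scaling to each oocyte list, voom, subtraction of a loess fit on gene length (span 0.5), other variance settings, a replicate block and leaving out each library. The labels do not say whether the same replicate number pairs libraries, and the main fit did not pair them.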

Additional observations from a re-analysis of the deposited data

How the results depend on the processing

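Of 188 values of the 9 tested genes under 21 alternatives, 184 kept the direction of the reported value, and 4 did not. Ddx4 turned to −0.038 after TPM rescaling and to −0.12 relative to growing oocyte markers, and ranged from −0.006 to 0.032 when single libraries were left out; Tdrd5 ranged from −0.101 to 0.006. Relative to growing oocyte markers 3 of the 9 genes passed (Mov10l1, Tdrd9 and Piwil2), and no other alternative called any. On that scale all genes share the error of the reference, so its limma calls do not measure the spread between libraries. The median of the 9 ranged from −0.271 to −0.061 over single libraries left out, lowest in size without ISRIB replicate 3. The count apart from Ddx4 ranged from 4 to 7, highest without Control replicate 1. With all 6 libraries kept, it was 6 of 8 after the length correction. With no filter on low values, which adds Tdrd6, it was 5 of 9. Groups with a library fewer stand apart more easily, and no share of all genes was computed for any of these counts. Over all genes tested, where 0 were called, 8 passed at a mean FPKM of at least 5, 19 after TPM rescaling, 152 relative to growing oocyte markers, 120 in voom, 4 after the length correction, 16 with array weights and 11 with the replicate block. At an unadjusted p under 0.05, 1126 genes were higher and 999 lower, and 605 and 1930 after TPM rescaling. Among other genes, growing oocyte scaling gave Wdr77 −0.031, Dazap1 −0.077 and Tdrd3 −0.044, while leaving out libraries gave Pld6 −0.246 to 0.031 and Ddx3x −0.127 to 0.007. The cause of these changes was not tested.

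Same-numbered libraries had correlations of their deviations from the group means of −0.19, −0.0909 and 0.192. Differently numbered libraries ranged from −0.337 to 0.355. With so few libraries, these values cannot decide whether the replicate number pairs them, and the labels do not say. The replicate block called 0 of the 9 genes. Each of the 9 had 406 or more reads per library, and Tdrd6 had 1 to 27. What limits the precision of each gene was not tested.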

Other observations

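The other small RNA system of the oocyte, the miRNA and siRNA machinery, was measured in the same libraries. Of 13 genes, 10 were lower and 3 higher in ISRIB, with a median log2 fold change of −0.07. None passed the limma test. At an unadjusted limma p under 0.05, 6 of the 13 were lower and 0 higher, beside 7.73% of all genes that were lower. All ISRIB libraries lay below all Control libraries for 6 of the 13 and for 12.0% of all genes. Drosha, the nuclease that cuts primary miRNA transcripts, had a Control mean of 49.1 ± 2.07 FPKM and an ISRIB mean of 43.6 ± 0.994 FPKM (−0.17 on the log2 scale, limma adjusted p = 0.145). Ago1 had 29.5 ± 0.562 and 25.8 ± 0.959 FPKM (−0.19, adjusted p = 0.125), and Ago2, the Argonaute that cleaves its targets, 10.6 ± 0.452 and 8.34 ± 1.22 FPKM (−0.33, adjusted p = 0.167; SD, n = 3 each). After the length correction Drosha was at −0.14, Ago1 at −0.13 and Ago2 at −0.27. Tnrc6c, a partner of Argonautes in repression, had −0.18 (adjusted p = 0.160) and −0.11 after that correction. These genes are expressed in most cell types, so the values describe the whole ovary.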
